A study of Mus musculus with 6 samples.

Results

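Of 984 mature miRNAs counted in mouse heart, 4 were chosen by name, those beginning mmu-miR-21a- or mmu-miR-210-. They are mmu-miR-21a-5p, mmu-miR-21a-3p, mmu-miR-210-3p and mmu-miR-210-5p, written without the species prefix from here on: the 5p and 3p arms, that is the strands cut from either side of one hairpin, of the stress-responsive miR-21a and of the hypoxia miRNA miR-210. The tissue was myocardium, the muscle wall of the heart, of mice (Mus musculus) taken at a post-mortem interval of 6 d (3 libraries) or 0 h (3 libraries). This interval runs from death to sampling, and the series asks how miRNAs can serve to estimate it. Strain, sex, age, treatment and storage of the bodies are not given in the labels, and neither is whether each library is of its own mouse. The p-values therefore cover the spread between libraries, which may be technical.

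Most miRNA genes are transcribed as a long precursor that is cut to a hairpin and then to a short duplex, of which usually 1 strand is kept in Argonaute while its partner is lost. Bases 2 to 8 of the kept strand, the seed, choose the messenger RNAs it represses. miR-21 is abundant in fibroblasts, leukocytes and many tumours and is known for its increase in injured and overloaded heart. miR-210 is transcribed under the hypoxia-inducible factor HIF-1α, and it represses mitochondrial genes such as Iscu when oxygen is scarce.

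The 4 mature sequences are shown because each member is only this stretch, and because both genes keep opposite arms of the hairpin. They are from RefSeq (GRCm38.p6), 5′ to 3′, with the seed in capitals, and all 4 matched by name.
miR-21a-5p: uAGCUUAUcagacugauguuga
miR-21a-3p: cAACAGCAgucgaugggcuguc
miR-210-3p: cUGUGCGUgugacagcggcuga
miR-210-5p: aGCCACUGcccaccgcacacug
All 4 are 22 bases long and no seed is shared among them. In miR-21a-5p 8 of the 22 bases are G or C (36.4%), and in miR-210-3p 14 of 22 are (63.6%). Of the 407 tested miRNAs with a RefSeq sequence, 37 had a lower share of G and C than miR-21a-5p and 22 a higher share than miR-210-3p, so the abundant strands of the 2 genes lie near opposite ends of base composition.

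Mir21a lies at chr11:86584067-86584158 on the minus strand (GRCm38.p6). In the GENCODE vM21 annotation this is inside exon 12 of Vmp1, in its UTR at chr11:86583865-86585310, on the same strand. Vmp1 encodes a membrane protein needed for autophagy. Mir210 lies at chr7:141221384-141221493 on the minus strand, and no other GENCODE vM21 gene overlaps it. The build of the deposited tables is not given in the sources used here. These positions are RefSeq's and GENCODE's own. The Mir210 hairpin is printed to show where its arms lie, with first the 5p and then the 3p arm in capitals.
Mir210: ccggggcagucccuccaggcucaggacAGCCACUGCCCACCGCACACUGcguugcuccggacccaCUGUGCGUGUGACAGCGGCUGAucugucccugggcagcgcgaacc

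Of 1679 mature mouse miRNAs in RefSeq, 1 other shares the seed of miR-21a-5p, miR-21c, which is not analysed here, and 0 share that of the other 3 arms. Both near copies of miR-21a-5p are printed, since their reads could be mistaken for it.
miR-21b: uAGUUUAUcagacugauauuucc
miR-21c: uAGCUUAUcagacugguacaa
Counted from the 5′ end of miR-21a-5p, miR-21b differs by C4U, G18A, G21U and A22C and is 1 base longer. The first 15 bases of miR-21c are those of miR-21a-5p, and it then differs by A16G, G18A, U19C, U20A and G21A. The miR-21b row held 0 reads in the 3 libraries at 6 d and 1 read in all at 0 h. Adding it to miR-21a-5p left the log2 fold change at 1.24.

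The libraries held between 617069 and 1889594 miRNA reads at 6 d and between 4468547 and 7906555 at 0 h. Values are normalised CPM, reads scaled to 1000000 per library and by a further factor of the library, as deposited for 5 libraries and derived for 0 h replicate 1. The cardiomyocyte miRNA miR-1a-3p ranked 1 by reads in 6 of 6 libraries, and 0 of the 5 cardiomyocyte markers were at 0 in all libraries. A fall in such bulk tissue can be fewer cells of a type or less RNA per cell, which cannot be told apart, and each value is relative to the other miRNAs of its library.

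miR-21a-5p was higher and miR-210-3p lower at 6 d than at 0 h. On the mean of normalised CPM, miR-21a-5p stood 2.59-fold higher at 6 d, while miR-210-3p stood at 0.405 of its 0 h mean. Both minor arms were near the limit of detection. In limma with Benjamini-Hochberg adjustment over the 470 miRNAs that passed a filter on low values, both abundant arms were called at an adjusted p under 0.05, miR-210-5p was not called, and miR-21a-3p did not pass the filter. Of all tested miRNAs 37.9% were called, 16.0% higher and 21.9% lower at 6 d, so a call in either direction was common in these libraries.

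miR-21a-5p, the abundant arm of Mir21a, had 12253, 5137 and 4598 normalised CPM in the libraries at 6 d (replicates 1, 2 and 3), against 3227, 2406 and 2848 at 0 h. The lowest 6 d library was above the highest 0 h library, as were those of 19.8% of all tested miRNAs, and 6 d replicate 1 was more than double each other 6 d library. The mean was 7329 ± 4273 at 6 d and 2827 ± 411 at 0 h (SD, n = 3 each). On the log2(CPM + 1) scale the difference was 1.24 ± 0.40 (SE, 95% interval 0.33 to 2.14, limma adjusted p = 0.035), the 75th highest of the 470.

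The call of miR-21a-5p was weak. Leaving out 6 d replicate 1 gave a log2 fold change of 0.79 (limma adjusted p = 0.063), so on this scale the size rests in good part on this library. That reading depends on the library factor. As a share of the miRNA reads, without such a factor, miR-21a-5p was higher at 6 d by 0.556 percentage points. Without 6 d replicate 1 this was 0.446. The call was also lost without 0 h replicate 1 (adjusted p = 0.076), 0 h replicate 2 (0.12) or 0 h replicate 3 (0.072), and with no filter on low values (0.053), in limma each time. The log2 fold change moved little there, to 1.34, 1.13 and 1.25 without 0 h replicates 1, 2 and 3. The direction was the same in all 19 alternatives run, where the log2 fold change lay between 0.79 and 1.70.

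miR-210-3p, the abundant arm of Mir210, had 94.9, 79.4 and 69.5 normalised CPM in the libraries at 6 d, against 204, 172 and 226 at 0 h. The groups did not overlap, and each was tight on this scale: the highest library was 1.37 times the lowest at 6 d and 1.31 times at 0 h. As shares of the miRNA reads, without a library factor, the libraries spread more. These ran from 0.00789% to 0.0125% at 6 d and from 0.0131% to 0.0200% at 0 h. Groups that do not overlap, with 6 d lower, were found for 30.9% of all tested miRNAs. The mean was 81.2 ± 12.8 at 6 d and 201 ± 26.9 at 0 h (SD, n = 3 each), and the log2 fold change was -1.30 ± 0.30 (SE, 95% interval -1.97 to -0.62, limma adjusted p = 0.0088), the 100th lowest of the 470. This rests on 149, 60 and 77 reads at 6 d and on 838, 1036 and 1462 at 0 h.

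The direction of miR-210-3p was the same in all 18 alternatives run, and its call was lost in 2 of them. Leaving out each library in turn gave log2 fold changes between -1.41 and -1.19, with limma adjusted p between 0.0081 and 0.044. Other scalings kept the call, with -1.07 by RLE size factors (limma adjusted p = 0.018) and -1.28 by recomputed TMM factors (0.011). With library totals alone the value was -0.84 (limma adjusted p = 0.16). With reads thinned to the lowest total, which changes depth and TMM factors together, it was -0.80 (limma adjusted p = 0.092). The median over the tested miRNAs was -0.33 as deposited, -0.17 by RLE, -0.31 by recomputed TMM, 0.022 by library totals alone and 0.081 after thinning. Relative to that median, in the same order, miR-210-3p stood at -0.97, -0.91, -0.96, -0.86 and -0.88, and miR-21a-5p at 1.57, 1.63, 1.57, 1.67 and 1.57.

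**Figure D1:**
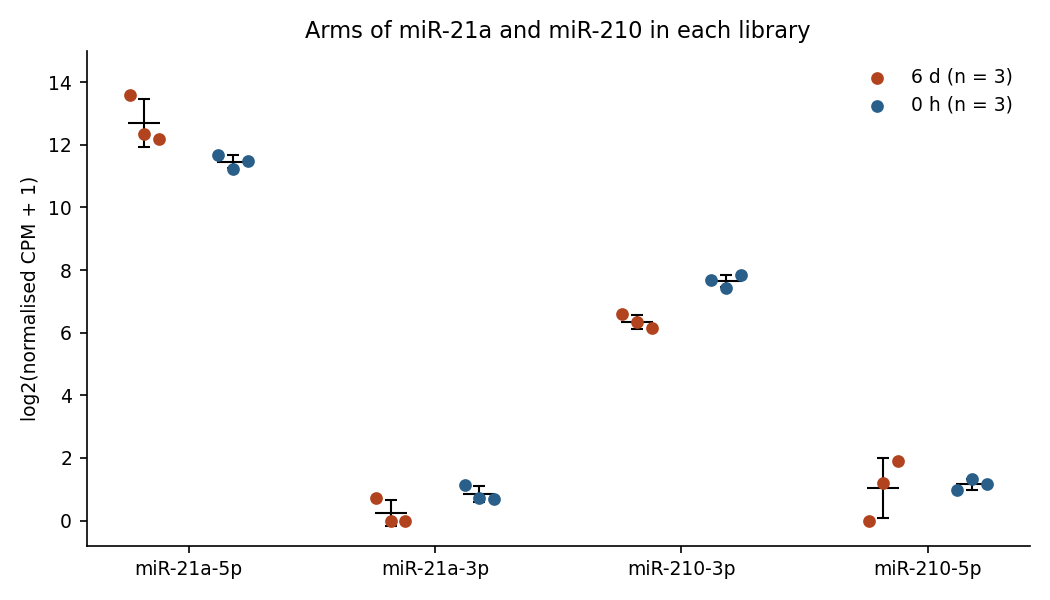
Level of the 4 arms in each library as log2(normalised CPM + 1), with 6 d left of 0 h for each arm, points for libraries, and bars for the mean and SD (n = 3 each). For miR-21a-5p the 6 d points lie above all 0 h points and replicate 1 is highest at 12253 CPM, for miR-210-3p they lie below all 0 h points, and both minor arms stay at or under 2.71 CPM.

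**Figure D2:**
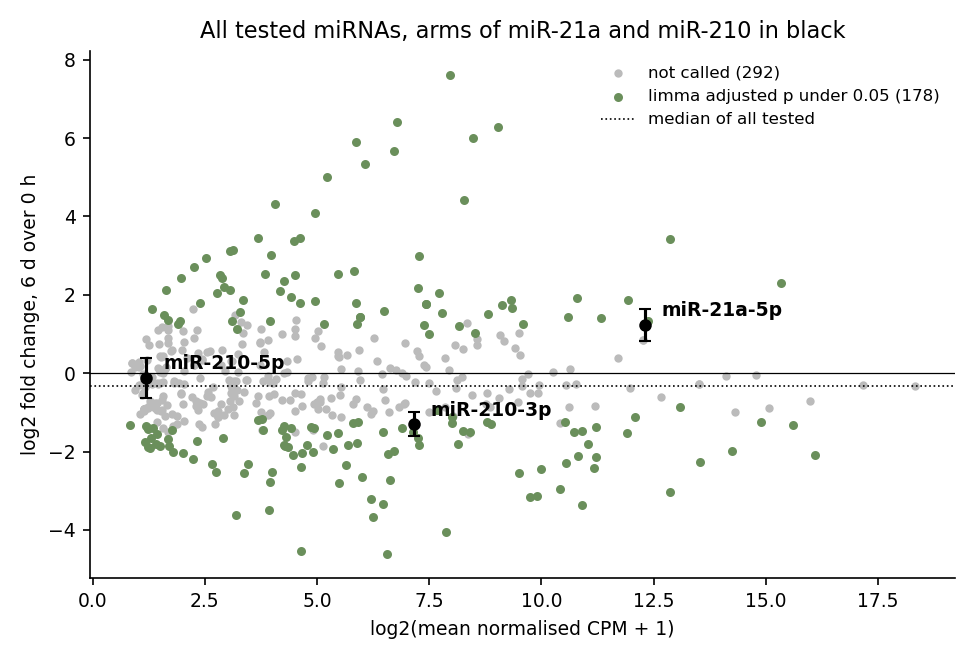
Log2 fold change of 6 d over 0 h against mean level, log2(mean normalised CPM + 1), for the 470 tested miRNAs, with the 178 called ones in green and the tested arms of miR-21a and miR-210 in black with SE. miR-21a-5p (1.24) lies above and miR-210-3p (-1.30) below the dotted median of all tested miRNAs (-0.33).

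Plain shares of the miRNA reads show the same order without a library factor. miR-21a-5p took 1.02%, 0.555% and 0.826% of the reads at 6 d, against 0.297%, 0.183% and 0.253% at 0 h. Its rank by reads was 11, 22 and 22 at 6 d and 30, 37 and 32 at 0 h, so it stood among the more abundant heart miRNAs at both intervals. miR-210-3p took 0.00789%, 0.00858% and 0.0125% at 6 d, against 0.0188%, 0.0131% and 0.0200% at 0 h.

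The nearest libraries in that share of miR-210-3p were 6 d replicate 3 and 0 h replicate 2. Their exact binomial 95% intervals were 0.00985% to 0.0156% and 0.0123% to 0.0139%, so counting error alone covers the gap between them. Its rank was 132, 136 and 144 at 6 d and 102, 108 and 97 at 0 h. For both shares the two-sided exact permutation test gave p = 0.1, which is the smallest it can give with 3 libraries a group, and an adjusted p of 0.13 over 5 measures, these shares and the 3 ratios that follow.

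The ratio of miR-21a-5p to miR-210-3p within a library needs no scaling at all. There were 129, 64.7 and 66.2 reads of miR-21a-5p for each read of miR-210-3p in the 6 d libraries, against 15.8, 14.0 and 12.6 in the 0 h libraries. The lowest ratio at 6 d was above the highest at 0 h. This had to follow from the shares above, which did not overlap between intervals and differed in opposite directions. The p of 0.1 for this ratio was thus fixed by those shares and adds nothing to them. The mean log2 ratio was 6.36 ± 0.57 at 6 d and 3.81 ± 0.16 at 0 h (SD, n = 3 each), a difference of 2.54 or 5.83-fold (exact two-sided permutation p = 0.1, adjusted p = 0.13). It stayed between 2.22 and 2.72 when any 1 library was left out.

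Against miR-1a-3p, the main miRNA of cardiomyocytes, the arms were less clear. There was 1 read of miR-21a-5p for 43.5, 60.4 and 23.9 reads of miR-1a-3p at 6 d, against 91.8, 203 and 88.4 at 0 h, so these groups did not overlap either. The log2 ratio was higher by 1.57 at 6 d (exact two-sided permutation p = 0.1, adjusted p = 0.13). For miR-210-3p there was 1 read for 5617, 3907 and 1584 reads of miR-1a-3p at 6 d, against 1452, 2831 and 1115 at 0 h. Here the groups overlapped, and the log2 difference was -0.97 (exact two-sided permutation p = 0.2). The smallest p this test can give with these libraries is 0.1, so neither ratio to miR-1a-3p could pass the threshold for a call. miR-1a-3p itself spread widely, from 19.8% to 44.3% of the reads at 6 d and from 22.3% to 37.1% at 0 h.

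**Figure D3:**
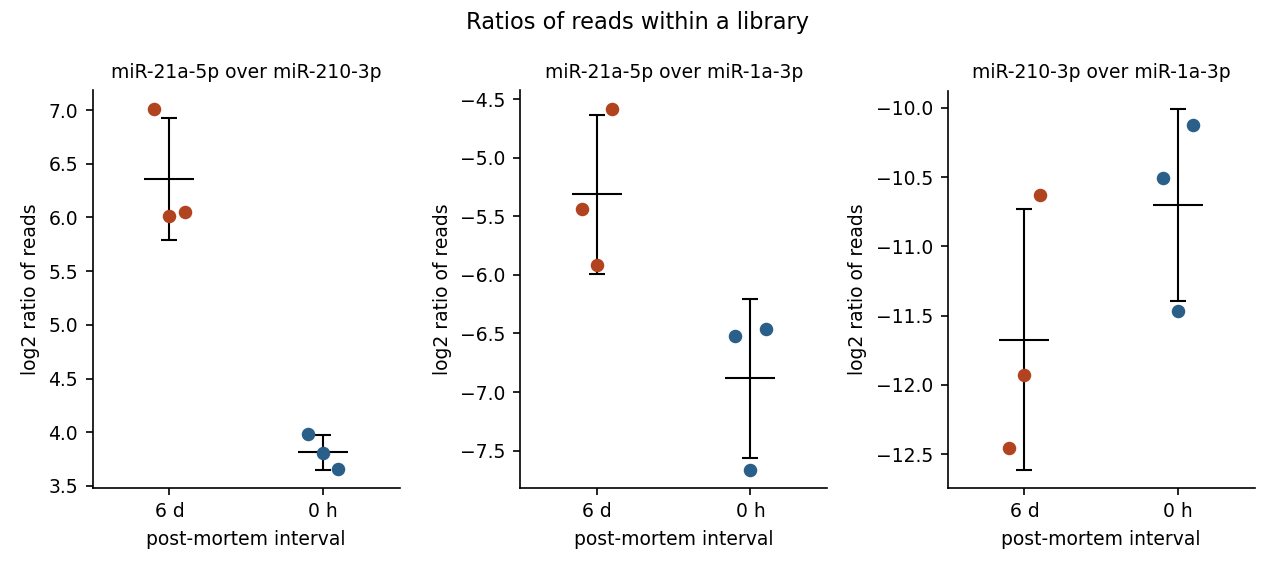
Log2 ratios of reads within each library for miR-21a-5p over miR-210-3p, miR-21a-5p over miR-1a-3p and miR-210-3p over miR-1a-3p, with 6 d left of 0 h, points for libraries and bars for the mean and SD (n = 3 each). The first ratio averaged 6.36 at 6 d and 3.81 at 0 h with no overlap, while the third overlaps between the intervals.

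The passenger strands were rare. miR-21a-3p had 1, 0 and 0 reads at 6 d and 5, 4 and 4 at 0 h, or 0.637, 0 and 0 CPM against 1.22, 0.666 and 0.618 CPM. The 6 d libraries were under their floor of 3 reads, which corresponds to 1.91 to 3.97 CPM there, so a difference was not detectable at this depth. Of the reads of both miR-21a arms the 3p arm made up 1 of 28228 at 6 d (0.00354%, exact 95% interval 0.0000897% to 0.0197%) and 13 of 46174 at 0 h (0.0282%, 0.0150% to 0.0481%). The intervals overlap, which is not a test of whether the shares differ, and they cover counting error only. The arm ratio of miR-21a was not tested, because its 3p arm was under the filter.

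miR-210-5p had 0, 1 and 3 reads at 6 d, or 0, 1.32 and 2.71 CPM, and 4, 9 and 8 reads at 0 h, or 0.974, 1.50 and 1.23 CPM. The 6 d values lie on both sides of the 0 h values. The log2 fold change of -0.12 (95% interval -1.28 to 1.04, limma adjusted p = 0.87) has no stable sign. As a share of both miR-210 arms the 5p arm was 4 of 290 reads at 6 d (1.38%, exact 95% interval 0.377% to 3.49%) and 21 of 3357 at 0 h (0.626%, 0.388% to 0.955%). With libraries pooled, the miR-210 passenger strand thus took a larger part of its hairpin's reads than that of miR-21a at either interval. The pooled counting intervals do not overlap, but they leave out the spread between libraries. In 6 d replicate 1 the order was the other way, with 0 of 149 reads for miR-210-5p and 1 of 19252 for miR-21a-3p. The other libraries kept the pooled order.

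In the test of arm ratios over 116 precursors, where 38.8% were called, miR-210 had a log2 ratio of 5p over 3p reads that was higher at 6 d by 1.66 ± 0.77 (SE, n = 3 each, limma adjusted p = 0.12). It was called at 2.54 without 6 d replicate 1 (limma adjusted p = 0.0095), the library with 0 reads of the 5p arm, and at 2.61 with 5 reads added to each arm in place of 1 (0.0044). It was not called with 0.5 reads added (1.24, limma adjusted p = 0.34), nor with all libraries thinned to the lowest total (1.10, 0.23). The same number of reads was added to each arm in every library, which pulls the ratio of a rare to an abundant arm upward. This pull is stronger at 6 d, where the 3p arm had 149, 60 and 77 reads, than at 0 h, with 838, 1036 and 1462. The added reads thus raise the difference by themselves, most with 5 added. Neither a direction nor a firm size can be given for this ratio from so few 5p reads.

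Among 274 other miRNAs with a mean of at least 10 CPM, likeness to a member was measured as the root mean square difference of log2 profiles over the 6 libraries, each centred on its own mean. The profile nearest to miR-21a-5p was that of miR-26b-5p (0.25, log2 fold change 1.41), then miR-467a-5p (0.31), miR-224-5p (0.34), miR-30b-5p (0.35) and miR-199a-3p (0.36), whose row shares reads with miR-199b-3p. The median over all candidates was 1.11. Nearest to miR-210-3p was miR-24-2-5p (0.082, log2 fold change -1.24), followed by the endothelial miR-126a-3p (0.18), miR-187-3p (0.19), miR-676-3p (0.21) and miR-30d-3p (0.21), with a median of 0.79 over all candidates. The profile of miR-210-3p therefore had closer neighbours in these libraries than that of miR-21a-5p.

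miR-21a-5p and both arms of miR-210 are also members of a list of 21 miRNAs reported to respond to low oxygen. All 21 were tested, and 6 were higher and 5 lower at 6 d, that is 28.6% and 23.8% beside 16.0% and 21.9% of all tested miRNAs. The median log2 fold change was 0.075, against -0.33 over all tested. miR-210-3p, the classic hypoxia miRNA, fell, as did miR-24-3p (-1.38), miR-26a-5p (-1.25), miR-27a-3p (-1.11) and miR-125b-5p (-2.42). Besides miR-21a-5p, the members that rose were miR-26b-5p (1.41), miR-93-5p (1.86), miR-181a-5p (1.88), miR-181b-5p (1.65) and miR-181c-5p (1.26). The calls were thus split, with miR-21a-5p and miR-210-3p on opposite sides. The list sets no expected direction for its members, so this split does not speak to a response to low oxygen. By edgeR 6 rose and 4 fell of 20, where 22.0% and 19.6% of all were called. With library totals alone 7 rose and 1 fell, where 17.6% and 8.47% of all were called. Without 0 h replicate 1 limma called 3 higher and 3 lower, where 56 and 58 of all 443 tested were called. Without 0 h replicate 3 it called 5 higher and 3 lower, where 60 and 70 of all 449 were.

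In a list of 24 miRNAs known from hypertrophied, infarcted or failing heart, 6 of which are also in the hypoxia list, miR-21a-5p was 1 of 3 that were higher at 6 d. The others were miR-133a-3p (1.43) and miR-222-3p (1.25). Lower were 8 members, miR-24-3p, miR-29b-3p (-1.84), miR-30c-5p (-3.03), miR-125b-5p, miR-208a-3p (-1.49), miR-214-3p (-1.59), miR-320-3p (-1.47) and miR-499-5p (-1.48), and 13 were not called. The median log2 fold change was -0.71, against -0.33 over all tested. These are 12.5% higher and 33.3% lower, beside 16.0% and 21.9% of all tested miRNAs. With library totals alone 4 rose and 2 fell of the 24 (17.6% and 8.47% of all tested), and by edgeR 4 rose and 7 fell of 23 (22.0% and 19.6%). Without 0 h replicate 1 or 0 h replicate 2, limma called 5 members lower each time. Of all tested miRNAs it then called 58 of 443 and 68 of 446 lower.

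**Figure D4:**
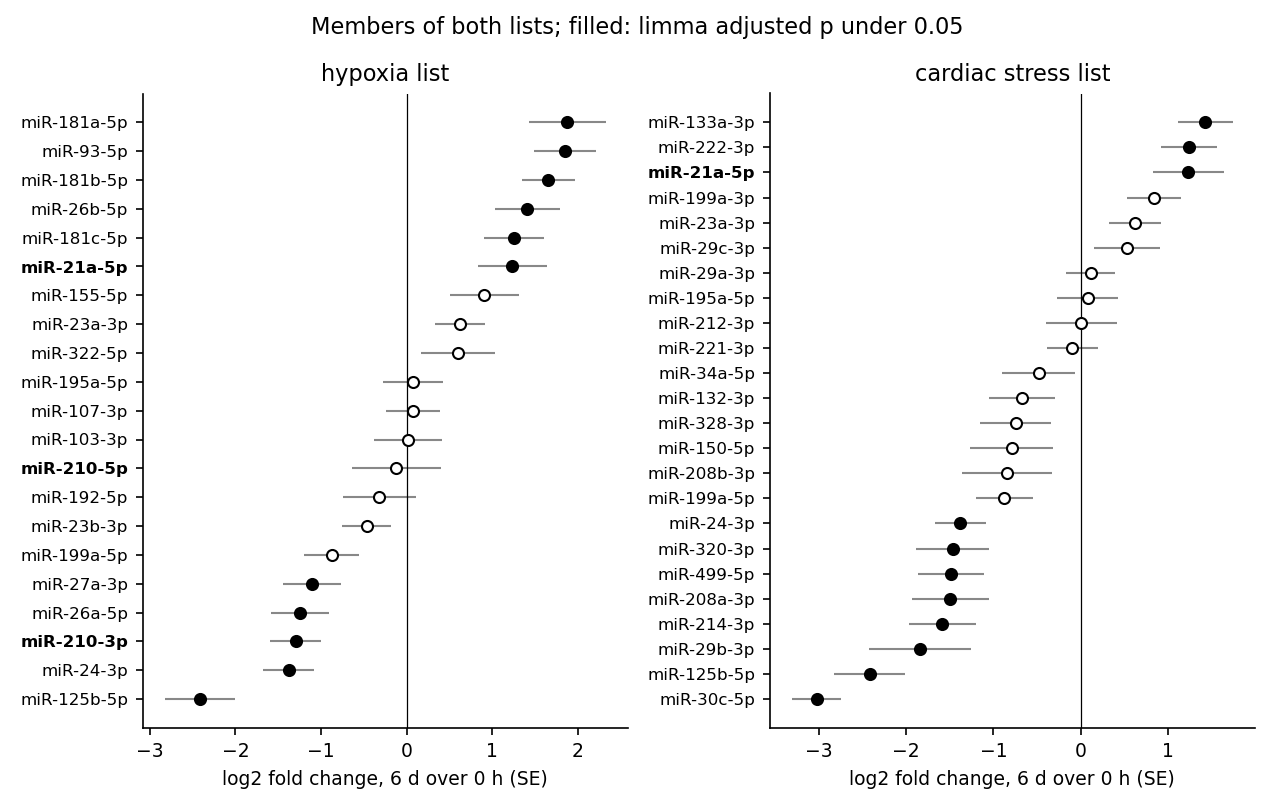
Log2 fold change of 6 d over 0 h with SE for the 21 members of the hypoxia list and the 24 of the cardiac stress list, filled where the limma adjusted p was under 0.05 and with the arms of miR-21a and miR-210 in bold. In the hypoxia list miR-21a-5p (1.24) is among 6 filled points above 0 and miR-210-3p (-1.30) among 5 below, and in the cardiac stress list miR-21a-5p is 1 of 3 filled points above 0.

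Lists of markers were read beside both miRNAs, and of all tested miRNAs 16.0% were higher and 21.9% lower at 6 d. The widest gaps were in markers of other tissues. The skeletal muscle miRNA miR-206-3p was higher, at 685 to 1440 CPM at 6 d and 8.34 to 15.3 at 0 h. The liver miRNA miR-122-5p was higher too, at 2086 to 23460 CPM at 6 d and 668 to 1406 at 0 h. Of 7 epithelial miRNAs 6 were higher, with a summed level of 1408 to 2579 CPM at 6 d and 139 to 439 at 0 h. The 4 erythrocyte miRNAs summed to 57778 to 105194 CPM at 6 d and 23041 to 30248 at 0 h, with 1 higher.

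For the cells of the heart wall, the 3 fibroblast miRNAs summed to 5371 to 8259 CPM at 6 d and 3501 to 4882 at 0 h. By limma 0 were higher and 1 was lower, with 3 at an unadjusted p under 0.05, and by edgeR 1 was higher and 1 lower. Their directions differed, with log2 fold changes of 0.84 for miR-199a-3p, -0.87 for miR-199a-5p and -1.59 for miR-214-3p. The sum was mostly miR-199a-3p, with a mean of 6316 CPM at 6 d and 3506 at 0 h. The 6 leukocyte miRNAs summed to 2912 to 5392 CPM at 6 d and 1547 to 4952 at 0 h, with 0 called by limma, 3 at an unadjusted p under 0.05, and 2 higher by edgeR. The 2 endothelial miRNAs summed to 25279 to 35076 CPM at 6 d and 56921 to 88648 at 0 h, with 1 lower. The 2 smooth muscle and pericyte miRNAs summed to 27916 to 90469 CPM at 6 d and 75146 to 79578 at 0 h, with 0 called by limma, 0 at an unadjusted p under 0.05 and 0 by edgeR. The 5 cardiomyocyte miRNAs summed to 113393 to 535915 CPM at 6 d and 256919 to 491616 at 0 h, with 1 higher and 2 lower. A call of 1 member in a list of 2 to 4 is little beside the share called over all tested miRNAs. An unadjusted limma p under 0.05 was reached by more than the 37.9% of all tested miRNAs that were called, so it marks little here. By edgeR 22.0% of all tested were higher and 19.6% lower. Replicate 1, the 6 d library with the highest miR-21a-5p, had the highest sum at 6 d for the cardiomyocyte, endothelial, smooth muscle, fibroblast and epithelial lists, and replicate 2 for the other lists. In these lists 0 members were at 0 in all libraries, and their part in the levels of miR-21a-5p and miR-210-3p was not tested.

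**Figure D5:**
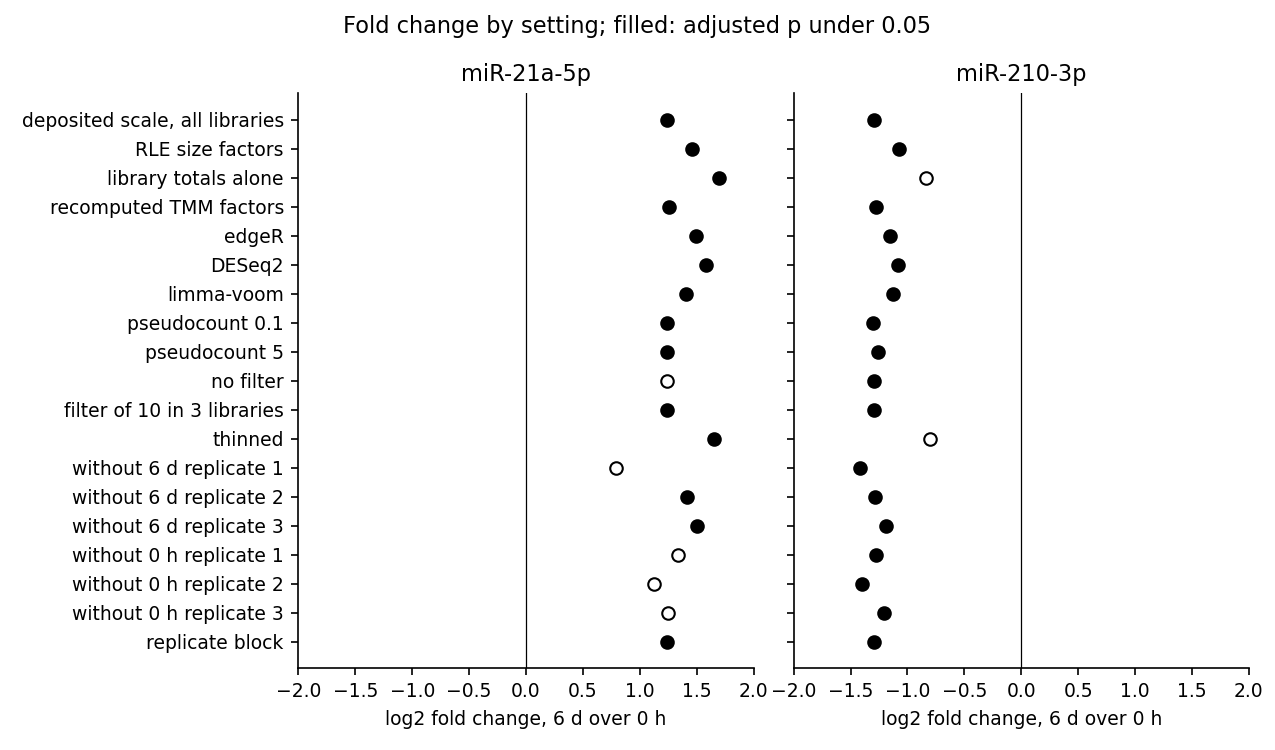
Log2 fold change of 6 d over 0 h for miR-21a-5p (left) and miR-210-3p (right) under each scaling, test, filter and omitted library, filled where the adjusted p was under 0.05. miR-21a-5p stays between 0.79 and 1.70 and loses its call in 5 settings, and miR-210-3p stays between -1.41 and -0.80 and loses it with library totals alone and after thinning.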

How the data were processed

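Small RNA of 6 libraries was sequenced after Trizol extraction and a NEBNext small RNA kit, per the labels' protocols. FastQC, Trimmomatic 0.39, cutadapt 2.8 and STAR 2.5.3a are named without a role, per the submitters' processing notes, and neither counting tool nor build is given there. The deposited file of 0 h replicate 1 holds read counts. Log2(x + 1) values stand in the other 5 deposited files, where x came in whole multiples of 1 step per library for 2692 of 2692 values tested (within the rounding of 0.0005 on the log2 scale), so reads were recovered. The counts were put on the scale of the other files with a factor of 0.919, which makes the 6 factors multiply to 1; this factor is derived, not the authors'. The test was limma 3.58.1 (trended prior, robust) on log2(value + 1), for miRNAs that reached 1 CPM in 3 or more libraries. The pseudocount understates changes of low miRNAs. edgeR 4.0.16, DESeq2 1.42.0 and limma-voom on recovered reads, 3 other scalings, other pseudocounts and filters, thinning, a replicate block and omission of each library were alternatives. Ratios used exact two-sided permutation tests (scipy 1.17.1). A call is an adjusted p under 0.05, the floor is 3 reads, and the exact intervals of read shares cover counting error only. Intervals of log2 fold changes are limma's and rest on the spread between libraries. Steps were tested on simulated data. Named miRNAs are the 4 rows, miR-21b and miR-21c, miR-1a-3p, the 5 nearest profiles of each abundant arm, and called members of both lists. Some members of the marker lists are named as well. The members and lists were chosen with earlier results of these data known.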

Additional observations from a re-analysis of the deposited data

How the results depend on the processing

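The call of miR-21a-5p was lost with no filter on low values (log2 fold change 1.24, limma adjusted p = 0.053, over more miRNAs tested) and when any 0 h library or 6 d replicate 1 was left out (0.79 to 1.50 over the 6 omissions). That of miR-210-3p was lost with library totals alone (-0.84) and after thinning (-0.80), while omissions gave -1.41 to -1.19. miR-210-5p, never called, had the opposite sign with library totals alone (0.25), RLE size factors (0.0049), a pseudocount of 5 (0.0033), DESeq2 (0.27) and thinning (0.25), and ranged from -0.55 to 0.40 over omissions. The miR-210 arm ratio became a call with 5 reads added (2.61), which weigh more in the shallower 6 d libraries. It was 1.10 after thinning and ranged from 1.06 to 2.54 over omissions. Omissions moved the 178 calls to between 114, without 0 h replicate 1, and 179. Over the omissions 54 to 71 miRNAs were called higher and 58 to 108 lower, of 438 to 449 tested. Higher and lower calls were 83 and 40 with library totals alone, 86 and 50 after thinning, and 90 and 84 with RLE size factors. The hypoxia median was 0.53 with library totals alone and 0.49 after thinning, and 0.00079 to 0.27 over omissions, with 3 to 7 members called higher and 3 to 5 lower. The cardiac stress median was -0.25, -0.39 and -0.34 with library totals alone, DESeq2 and thinning, and -0.80 to -0.47 over omissions, with 2 to 4 called higher and 5 to 8 lower. The causes were not tested. With the replicate block the adjusted p of limma was 0.012 for miR-21a-5p and 0.0040 for miR-210-3p, 195 miRNAs were called, and the miR-210 arm ratio stayed uncalled (0.091). Libraries that share a number deviated together at r = 0.068, 0.064 and 0.27, under 0.1 for 2 of the 3 pairs, so the replicate numbers were not used as pairs. The miR-21a arm ratio has no value under any alternative. At 6 d depth limits both minor arms to 3 reads or fewer in each library.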
